A study of Drosophila melanogaster with 9 samples.

Results

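Hemocytes of adult flies (AD) were compared with hemocytes of larvae (PH) across all expressed genes. A gene was kept when 3 or more of the 6 samples exceeded an RPKM of 1, which left 7692 of the 17490 genes in the deposited values. RPKM is a read number scaled to exon length and sequencing depth, so levels can be set side by side between genes. Both groups came from w1118 animals without any treatment, with 3 biological replicates each. AD samples were flushed with PBS from females aged 5 days, and PH samples were the peripheral hemocytes released from wandering L3 larvae after the cuticle was opened. Each replicate pooled the cells of many animals, the paper's legends describe the larvae as females too, and the lymph gland samples of the series were not used.

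Drosophila hemocytes are the blood cells of the fly. Plasmatocytes, the macrophages, engulf microbes and dying cells and secrete much of the basement membrane. Crystal cells carry the prophenoloxidases that blacken wounds, and lamellocytes wrap parasitoid eggs and are rare in uninfected larvae. In the larva the cells divide and crawl in a fast growing animal under the control of ecdysone, the steroid that starts metamorphosis, whereas in the adult there is little division and many cells sit along the heart.

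The number of reads recovered from the values was 2920664 to 3201825 in an AD sample and 4999411 to 6534561 in a PH sample. These reads are back-calculated, and they are fewer than the mapped reads that the paper reports for each sample. Their sum can also exceed the fitted library total, as in PH replicate 3 (4999411 against 3849900). Reads on rRNA genes made up 43.0 to 46.8% of them in AD and 47.3 to 61.5% in PH. Pearson's r of log2(RPKM + 1) across the tested genes, which are not independent replicates, was 0.948 to 0.954 within AD, 0.961 to 0.975 within PH and 0.638 to 0.683 between the groups. PH replicate 3 had the highest rRNA share, 61.5% against 47.3 and 50.5% in the other PH samples, and reads on 8828 genes against 9374 and 9461. Without it 1626 genes were called higher and 922 lower by the rule given next. A gene at 0 reads is given the level of 3 reads in a library as its limit, which covers counting error only.

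Of the 7692 genes, 2844 (37.0%) differed between AD and PH at an adjusted p below 0.01 and a fold change above 2 (limma on log2(RPKM + 1), two-sided, Benjamini-Hochberg over all tested genes), and these are the genes called below. Expression was higher in AD for 1773 genes (23.0%) and lower for 1071 (13.9%). The rises were larger than the falls, with a median log2 fold change of 1.92 (quartiles 1.43 and 2.77) against -1.55 (quartiles -2.14 and -1.24). A change beyond 2 on the log2 scale was seen for 821 higher and 313 lower genes. In all called genes the 3 AD values lay on one side of the 3 PH values. Over all tested genes, AD lay above PH without overlap for 2716 (35.3%) and below it for 2315 (30.1%).

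The 1773 higher genes accounted for 38.9 to 41.5% of the RPKM outside rRNA in an AD sample and for 5.91 to 6.46% in a PH sample. The 1071 lower genes accounted for 8.65 to 9.79% in AD and 37.9 to 40.1% in PH. Each set of genes was thus a large share of the transcripts in the group where it was high. A total of 141 higher genes had 0 reads in every PH sample and 39 lower genes had 0 reads in every AD sample. The largest limit among them belonged to *ninaD*, a class B scavenger receptor that takes up carotenoids, which had 208, 251.4 and 249.8 RPKM in the AD samples and no PH read, so that it was at least 542-fold higher in AD.

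How many of the called genes lay on each side changed with the scaling. With the values as deposited 62.3% of the called genes were higher in AD, and with quantile normalization 49.6% were (1425 higher and 1450 lower). The median log2 fold change of all tested genes was 0.05 as deposited, -0.20 after quantile normalization and 0.14 after scaling to the sum outside rRNA, so small shifts of a whole list are read against these values.

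**Figure D1:**
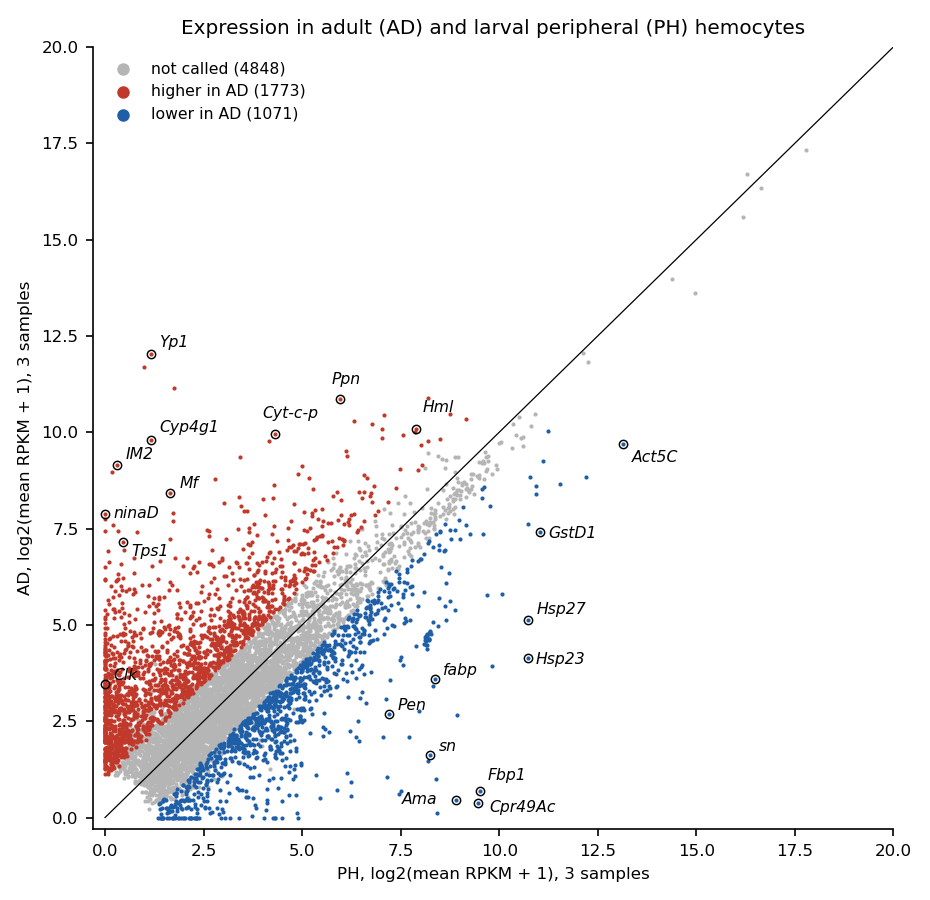
Mean expression of the 7692 tested genes in AD (vertical axis) against PH (horizontal axis), each as log2(mean RPKM + 1) over 3 samples, with 1 point a gene. Red points are the 1773 genes called higher in AD, blue points the 1071 called lower and gray points the 4848 not called; circled genes are described in the text, and the line marks equal expression.

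Genes that mark plasmatocytes were read at high levels in both groups. The summed RPKM of 13 plasmatocyte markers was 7180 to 8500 in AD and 2420 to 3750 in PH. In AD 5 markers were higher and 2 lower, against 23.0% and 13.9% of all tested genes. *Hml*, a large clotting factor (BDGP6.54 annotation, chromosome 3L, 13846054 to 13860001), had 979.5, 1269 and 1012 RPKM in the AD samples and 154.5, 199.4 and 358.1 in the PH samples. All AD values were above all PH values, and the log2 fold change was 2.27 (SE 0.28, adjusted p = 0.00016, limma). *Pxn*, a matrix peroxidase used as a marker of the same cells, moved the other way, with 114.7, 139 and 131 RPKM in AD and 262.3, 287.1 and 414.2 in PH (log2 fold change -1.29, adjusted p = 0.0003). The 2 genes therefore gave opposite orders of the groups.

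*He*, the pan-hemocyte surface protein Hemese, fell in AD by 4.04 on the log2 scale and *Nplp2*, a neuropeptide-like precursor, rose by 3.99. *NimC1*, the phagocytosis receptor P1, had 130.4, 159.9 and 132.7 RPKM in AD against 70.82, 45.69 and 236.1 in PH. Its PH values spanned the AD values and it was not called (log2 fold change 0.61, adjusted p = 0.32, limma). PH replicate 3 alone lay above the AD values, and without it *NimC1* was called higher, with a log2 fold change of 1.29 (adjusted p = 0.0014, limma). *srp*, the GATA factor of the blood lineage, had 115.9 to 126.3 RPKM in AD and 62.87 to 110.6 in PH (adjusted p = 0.048).

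The prophenoloxidases of crystal cells did not pass the test. *PPO1* had 699.8, 691.1 and 750.6 RPKM in AD and 821.4, 662.5 and 900.3 in PH, and *PPO2* had 825.8, 864.9 and 887.4 against 1021, 842.3 and 1282. The values overlapped for both genes. The transcription factors of these cells, *lz* and *peb*, rose by 1.54 and 2.42. Of the lamellocyte markers, *msn* rose by 1.38, *cher* and *mys* fell, and *atilla* had 2.899 to 8.328 RPKM in AD and 0 to 4.36 in PH with overlap, and was called higher without PH replicate 3. The call of *lz* was lost with a pseudocount of 5 RPKM and that of *mys* under 6 alternatives, among them that pseudocount and quantile normalization.

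Markers of other tissues moved as well. The 6 adult fat body markers summed to 7980 to 12400 RPKM in AD and 33.9 to 37.9 in PH, all 5 tested members were called higher, and the untested *to* had 1 read in AD and 0 in PH. They were carried by the yolk protein genes *Yp1* (4435, 5232 and 2974 RPKM in AD; 2.148, 1.24 and 0.3225 in PH), *Yp2* and *Yp3*, which are made in the fat body and ovary of females. In contrast, the 6 larval fat body markers summed to 9.04 to 18.4 RPKM in AD and 1430 to 2000 in PH, and all 6 fell. *Fbp1*, the receptor for larval storage proteins, had 0.7645, 0.7636 and 0.3489 RPKM in AD and 1063, 752.1 and 361.3 in PH, and *Lsp1beta*, a storage protein, had 3.008 to 7.586 and 445.6 to 520.2. Each stage thus held the fat body transcripts of its own stage. In the paper, nearly all cells flushed from adults aged 5 days carried a *srp* reporter. For the larval preparations it reports mostly hemocytes and no fat body cells seen by microscopy. *Yp1* shares 875 bp of exon with *CR45601* on the other strand, and the strand of the reads is not stated.

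Muscle genes were read mostly in AD. The 21 muscle markers summed to 1420 to 1460 RPKM in AD and 80.9 to 124 in PH, and 14 of 19 tested rose while none fell. *Mf* (myofilin) had 347.2, 346.4 and 340 RPKM in AD and 1.752, 1.098 and 3.482 in PH, and *TpnC4*, a troponin C of flight muscle, had 129.1, 108.7 and 124.9 RPKM in AD and a single read in PH. *Act88F*, the actin of flight muscle, had 43.96 to 69.55 RPKM in AD and 0.1139 to 0.5917 in PH. *fln* and *TpnC41C* had 0 reads in PH and did not pass the filter. The salivary gland glue genes were the reverse case, with a sum of 0 to 0.696 RPKM in AD and 21.1 to 166 in PH, highest in PH replicate 1 and lowest in PH replicate 3. The ovary markers summed to 12.5 to 34.5 RPKM in AD and up to 1.37 in PH. The 2 that were tested, *Cp15* and *yellow-g*, rose by 1.5 and 3.35, and *Cp15* lost its call with a pseudocount of 5 RPKM. The eggshell genes *Cp18* and *Cp36* were at 0 in all samples. The neuron markers summed to 114 to 131 RPKM in AD and 16.5 to 20.7 in PH, nearly all of it *Syx1A*. The heart and nephrocyte markers summed to 8.0 to 8.72 and 0.814 to 2.01, with *tin* at 0 throughout. Of these lists *svp* and *elav* were called higher as well (2.25 and 2.0), *elav* not with a pseudocount of 5 RPKM. The gut markers summed to 0.199 to 6.31 and 3.24 to 24.8 RPKM. The part of other tissues in the results below was not tested, and in such bulk samples fewer cells of a type cannot be told apart from less RNA per cell.

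**Figure D2:**
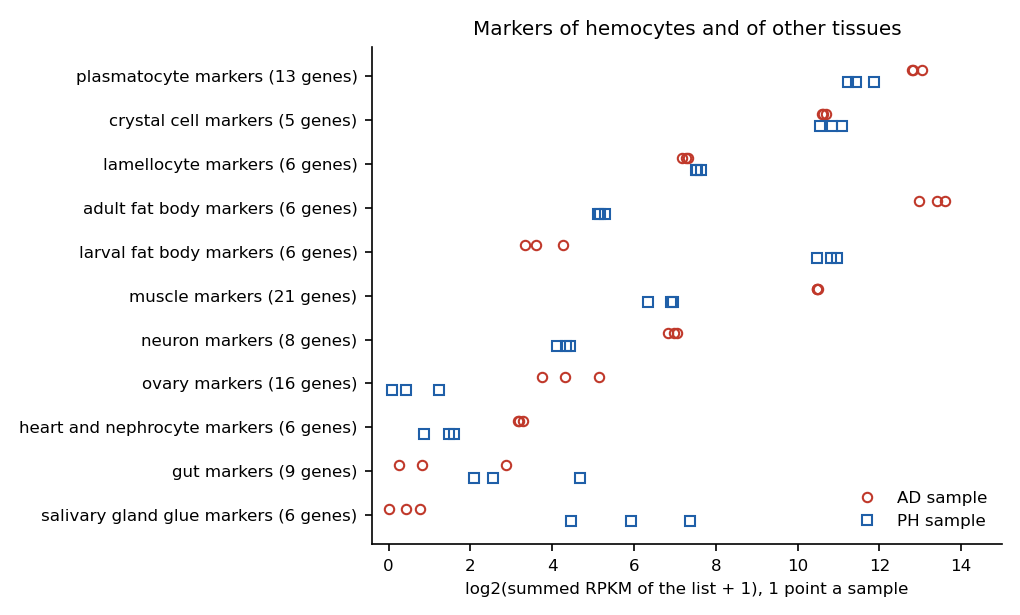
Summed RPKM of each marker list in the 3 AD samples (red circles) and the 3 PH samples (blue squares), as log2(sum + 1). Plasmatocyte markers were high in both groups, adult fat body and muscle markers in AD (up to 12400 and 1460 RPKM) and larval fat body and glue markers in PH (up to 2000 and 166 RPKM).

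The genes that break down sugar rose together in AD. Glycolysis turns glucose into pyruvate in the cytosol, and trehalose is the main blood sugar of insects. All 13 tested genes of glycolysis and all 8 of trehalose and glycogen metabolism were called higher, with medians of 2.16 and 2.69 on the log2 scale against 0.05 over all tested genes. The summed RPKM of the glycolysis genes was 1690 to 1820 in AD and 319 to 351 in PH, and that of the trehalose and glycogen genes was 436 to 500 and 48.3 to 50.8.

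The genes of this group differed in how much they rose. *Tps1*, the enzyme that makes trehalose (chromosome 2L from 4388327 to 4392778), had 156.8, 150.5 and 118.9 RPKM in AD and 0.4848, 0.2489 and 0.3558 in PH, a ratio of means of 391. *Hex-C*, one of the hexokinases, had 105.8, 90.83 and 90.08 RPKM in AD and 0.6322, 0.3651 and 0 in PH. These genes were close to absent in PH, in contrast to *Hex-A*, the other hexokinase, which had 67.61 to 80.48 RPKM in AD and 6.76 to 8.033 in PH. *Ald* (aldolase) had 523.9, 409.6 and 512.4 RPKM in AD and 23.95, 26.47 and 35.6 in PH (log2 fold change 4.04, SE 0.17, adjusted p = 4.6e-07, limma). The smallest rises were those of *Tpi* (1.15) and *Eno* (1.33). *ImpL3*, lactate dehydrogenase, was the least expressed, with 3.751 to 8.092 RPKM in AD and 0.2675 to 0.648 in PH, and lost its call with a pseudocount of 5 RPKM.

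Glycogen is stored and mobilised by a few enzymes. *GlyP*, glycogen phosphorylase, which releases glucose from glycogen, had 93.11, 94.16 and 95.16 RPKM in AD and 5.804, 5.547 and 4.957 in PH, a log2 fold change of 3.89. *GlyS*, glycogen synthase, rose by 1.44 and *AGBE*, the branching enzyme, by 2.79. The trehalose transporter *Tret1-1* had 31.65 to 48.96 RPKM in AD and 3.068 to 4.002 in PH, and *Treh*, the trehalase that splits the sugar, rose by 2.58. Genes for making, moving and splitting trehalose were thus all higher in AD.

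Nuclear genes of the mitochondrial energy pathways were higher in AD as well. Of 20 tested genes of the TCA cycle and pyruvate entry, 16 were higher and none lower, with a median of 1.96. Of 33 tested subunits of complex I, which takes electrons from NADH, 32 were higher, and of 35 of complexes II to V 33 were, with medians of 1.81 and 1.99. The summed RPKM of complexes II to V was 8310 to 9440 in AD and 2160 to 2400 in PH. A few genes rose much further than these medians. *Cyt-c-p*, the cytochrome c that carries electrons to complex IV, had 923.4, 1043 and 983.9 RPKM in AD and 15.01, 17.07 and 24.03 in PH, a ratio of means of 52.6. *ND-B8*, a small subunit of complex I, had 39.59, 42.42 and 36.79 RPKM in AD and a single read in PH. The rise did not extend to the mitochondrial ribosome, where of 71 tested protein genes none was higher and 8 were lower, with a median of -0.43. The share lower was near the 13.9% of all tested genes. By comparison with *Cyt-c-p*, *ATPsynbeta*, the catalytic subunit of ATP synthase, had 1545, 1381 and 1342 RPKM in AD and 390.4, 372.8 and 533.6 in PH.

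Some genes of the TCA list stayed out. *kdn* (citrate synthase) rose by 2.51, *Acon* (aconitase) by 2.65 and *Men* (malic enzyme) by 2.66. *Scsalpha*, a subunit of succinyl-CoA synthetase, had 74.99 to 86.99 RPKM in AD and 67.33 to 78.68 in PH, with overlap. *Idh*, the NADP-dependent isocitrate dehydrogenase, had 61.22, 70.12 and 51.78 RPKM in AD and 88.86, 87.85 and 89.53 in PH, a log2 fold change of -0.54 that did not reach the fold threshold. It was the only TCA gene with AD below PH without overlap. The call of *skap* (log2 fold change 1.01) was lost under 5 alternatives, among them a pseudocount of 5 RPKM and median-of-ratios scaling. Muscle, rich in glycolytic and mitochondrial transcripts, moved in the same direction as these lists (1420 to 1460 RPKM of markers in AD, 80.9 to 124 in PH), and its part in them was not tested.

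Genes of fatty acid oxidation did not move as a group. Of 15 tested genes 1 was higher and 2 lower, and the median was 0.04 (-0.04 after quantile normalization). AD lay above PH without overlap for 5 of them and below it for 6, against 35.3% and 30.1% of all tested genes. *scu*, a short-chain dehydrogenase of mitochondria, had 63.37, 64.75 and 76.49 RPKM in AD and 72.13, 68.73 and 78.34 in PH. *CG7461* and *CG7834* also overlapped between the groups. *Acsl*, which activates fatty acids, rose by 2.11. *CG6543* fell by 1.24 and *Mtpalpha* by 1.01, the latter with a call lost under 5 alternatives. *whd*, the carnitine palmitoyltransferase that brings fatty acids into mitochondria, had 8.438 to 10.01 RPKM in AD and 2.923 to 6.409 in PH (log2 fold change 0.81, adjusted p = 0.027).

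Lipid making and carrying genes were higher in AD. Of 14 tested genes of lipid storage and transport, 9 rose and 1 fell, with a median of 2.18. *apolpp*, the lipoprotein that carries lipid through the blood, had 676.2, 521.3 and 474.4 RPKM in AD and 29.2, 30.51 and 32.45 in PH. *LpR2*, a lipoprotein receptor, had 317.7, 303.9 and 306.2 RPKM in AD and 15.25, 14.94 and 14.9 in PH (log2 fold change 4.27, SE 0.10, adjusted p = 3.2e-08, limma). *ACC*, which makes the building block of fatty acids, had 53.33 to 64.79 RPKM in AD and 1.561 to 2.344 in PH. Carrier, receptor and synthesis genes were all well separated between the groups. The lipases and droplet proteins *bmm* and *Lsd-1* rose by 2.57 and 2.60, whereas *Lsd-2*, the other perilipin, had 142.5 to 160.2 RPKM in AD and 158.1 to 175.3 in PH with overlap. *fabp*, a fatty acid binding protein, was the exception, with 10.36, 12.5 and 10.37 RPKM in AD and 389.2, 321.8 and 274.9 in PH (log2 fold change -4.76). It shares 1660 bp of exon with *sea* on the same strand, so its reads are uncertain. Adult fat body markers moved with this list (7980 to 12400 RPKM in AD, 33.9 to 37.9 in PH) and their part in it was not tested. The 2 lists share *apolpp*, which made up most of the marker sum in PH.

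The cytochrome P450 genes, which oxidize hormones, lipids and foreign compounds, had a wide spread. Of 80 genes 38 passed the filter, and 27 of these were higher and 4 lower in AD. A gene read in a single group could pass only through that group. *Cyp4g1*, which makes cuticular hydrocarbons in oenocytes, had 1227, 949.6 and 473.1 RPKM in AD and 1.588, 1.594 and 0.5699 in PH. *Cyp12a4* had 130.9 to 163.9 RPKM in AD and 1.02 to 3.747 in PH, and *Cyp6w1* had 34.49 to 51.3 RPKM in AD and 7 reads in PH. In the other direction *Cyp4e2* fell by 1.92, *Cyp12c1* by 1.63 and *Cyp12e1* by 1.33. Members of the Cyp12 branch therefore differed in direction.

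Glutathione S-transferases, which attach glutathione to toxic compounds, went both ways. Of 24 tested genes 12 were higher and 5 lower, against 23.0% and 13.9% of all tested genes. *GstD1*, the most abundant of the family in PH (chromosome 3R from 12367817 to 12369268), had 130.4, 170.3 and 207.6 RPKM in AD and 2325, 2056 and 1943 in PH (log2 fold change -3.65, SE 0.17, adjusted p = 8.5e-07, limma). *GstO3* fell by 3.50. *GstE6* had 105.8, 94.25 and 103.4 RPKM in AD and 4.818, 7.257 and 8.301 in PH, and *GstD3* rose by 3.81. The summed RPKM of the family, 692 to 776 in AD and 2510 to 3060 in PH, was made up in PH mainly of *GstD1*.

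**Figure D3:**
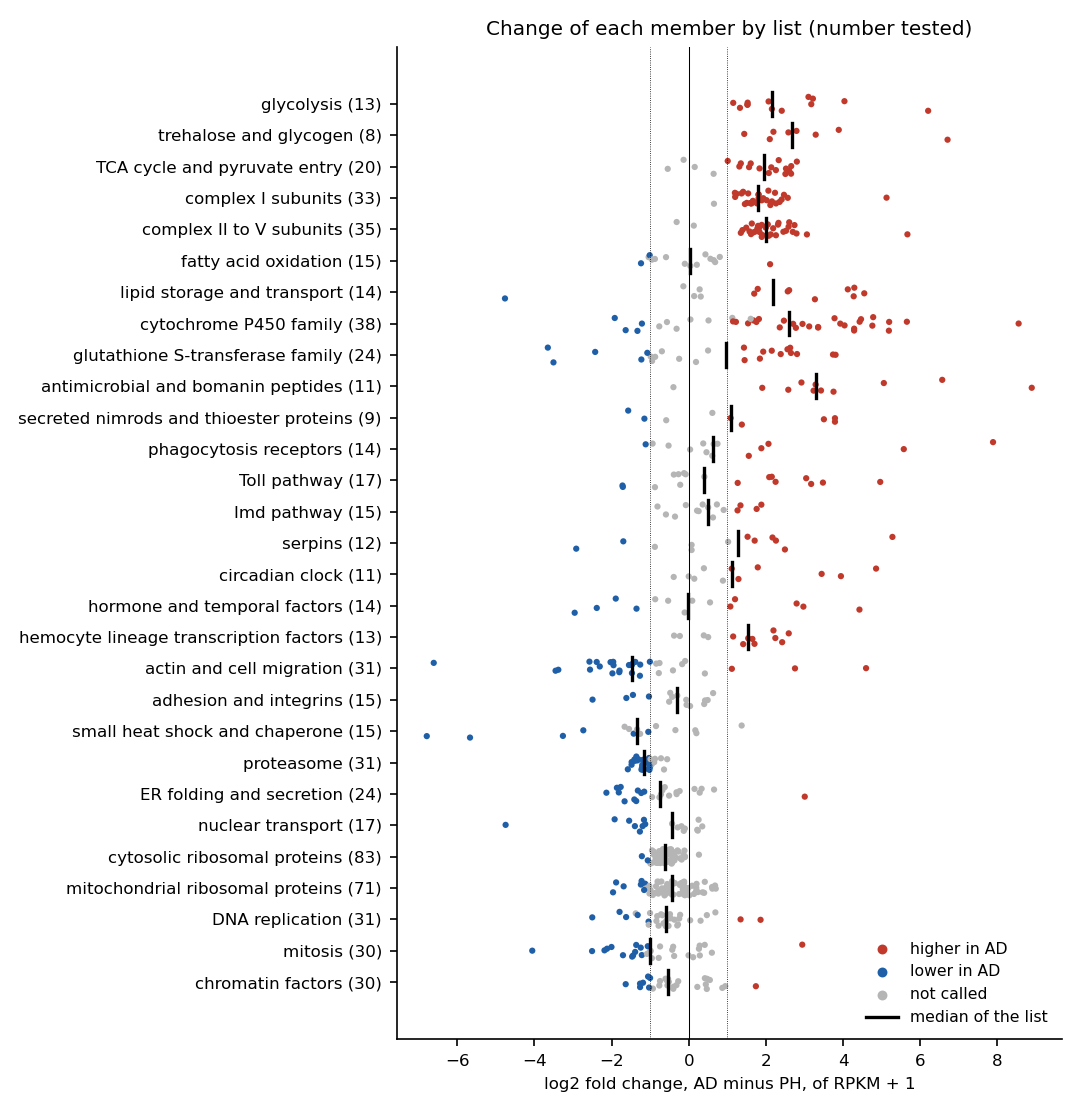
Log2 fold change (AD minus PH, of RPKM + 1) of each tested member of 29 gene lists, with 1 point a gene and a black bar at the median of the list; dotted lines mark a fold change of 2. All 13 glycolysis genes lie to the right of the dotted line and 23 of 31 proteasome genes to the left of it, whereas the 15 genes of fatty acid oxidation straddle 0.

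Antimicrobial peptides are secreted on infection, largely by the fat body and in part by hemocytes, and are made through the Toll and Imd pathways. Of 20 such genes, bomanins included, 11 passed the filter and 10 of these were higher in AD, against 23.0% of all tested genes. Of the 20, 12 had no reads in any PH sample, and such a gene could pass the filter only through AD. The count of higher genes is therefore partly set by the filter. *IM2*, a bomanin, had 607.2, 551.6 and 540.2 RPKM in AD and a single read in PH. *IM14* and *IM3* had 101.6 to 141.1 and 31.83 to 33.12 RPKM in AD, with 1 and 0 reads in PH, and *IM3* was at least 32.0-fold higher in AD. *Mtk* (metchnikowin) had 16.04 to 27.18 RPKM in AD and 0 to 1.356 in PH, and *CecC*, a cecropin, 6.005 to 23.49 and 0 to 2.019. *IM2* and *IM14* were thus well above *Mtk* and *CecC* in AD, and *IM3* was only a little above *Mtk*. *AttA*, *Def* and *Dro* had 5, 6 and 6 reads in AD and did not pass the filter. The low rises of *IM1* (17 reads in AD) and *DptB* (12 reads) were lost with a pseudocount of 5 RPKM.

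The Turandot genes, which encode secreted stress peptides, were higher in AD but uneven. *TotA* had 506.7, 80.55 and 159.2 RPKM in AD and 5.162, 13.18 and 13.46 in PH, and *TotC* had 358, 64.28 and 94.65 RPKM in AD and 0 reads in PH. *TotM* and *TotX* gave the same order, and AD replicate 1 was the highest for all 4 genes. All 4 were called, with log2 fold changes from 3.72 to 7.03. *Stat92E*, the transcription factor of the JAK/STAT pathway, rose by 1.42 and *Pvr*, a growth factor receptor, had a log2 fold change of 0.68.

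In the Toll pathway 8 of 17 tested genes were higher and 2 lower, against 23.0% and 13.9% of all tested genes. Of the members that act upstream in the blood, those that rose were the recognition proteins *GNBP3* (2.15) and *PGRP-SA* (2.25) and the proteases *modSP* (2.09), *psh* (3.48) and *SPE* (3.17), which lead to the activation of the ligand. *GNBP1* (0.41), *grass* (-0.08) and the ligand *spz* (-0.87) were not called. *nec*, a serpin that restrains this cascade, had 36.91, 33.62 and 36.09 RPKM in AD and 0.09633, 0.1113 and 0.3181 in PH. Inside the cell the order was mixed. *Dif*, an NF-kB factor of the pathway (chromosome 2L from 17413248 to 17433161), had 38.03, 39.84 and 32.16 RPKM in AD and 3.729, 3.7 and 3.238 in PH, a log2 fold change of 3.04. *tub* and *pll*, the adaptor and the kinase below the receptor, fell by 1.72 and 1.71, and *Myd88*, another adaptor, rose by 1.27. The receptor *Tl*, the inhibitor *cact* and the other NF-kB factor *dl* overlapped between the groups.

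In the Imd pathway 4 of 15 tested genes were higher, a share near the 23.0% of all tested genes, and none was lower. *PGRP-LC*, its receptor, had 35.78, 37.38 and 36.33 RPKM in AD and 11.82, 8.936 and 7.249 in PH. *Tab2* rose by 1.34, and *IKKbeta* and *PGRP-LB* rose by 1.27 and 1.76 with calls that were lost under 3 and 6 alternatives, the former each without a single sample. *Rel*, the NF-kB factor of this pathway, had 94.45, 111 and 94.23 RPKM in AD and 34.53, 103.2 and 160 in PH. The AD values lay inside the wide range of the PH values, and no difference was called (adjusted p = 0.66).

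Serpins, inhibitors of blood proteases, had 6 of 12 tested genes higher and 2 lower, against 23.0% and 13.9% of all tested genes. *Spn43Ab* had 73.25, 66.2 and 41.39 RPKM in AD and 0.4735, 0.5468 and 0.5863 in PH, and *Spn88Ea* rose by 2.26. *Spn27A*, which restrains melanization, fell by 1.69. *Spn42Dc* and *Spn42Dd* are neighbors that share 63 bp of exon. *Spn42Dc* had 0 to 1.165 RPKM in AD and 8.384 to 13.33 in PH, and *Spn42Dd* had 4.152 to 6.575 RPKM in AD and 0 to 1.064 in PH, so the neighbors moved in opposite directions, although the call of *Spn42Dd* was lost with a pseudocount of 5 RPKM.

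Phagocytosis receptors bind microbes and dying cells at the surface of plasmatocytes. Of 14 tested genes 5 were higher and 1 lower, against 23.0% and 13.9% of all tested genes. The 5 include *ninaD*, the carotenoid receptor described above. *NimC4*, a receptor for apoptotic cells (chromosome 2L from 14047582 to 14048863), had 42.62, 60.37 and 45.03 RPKM in AD and a single read in PH. *drpr* (Draper), which serves the same purpose, had 142.6, 122.2 and 144.5 RPKM in AD and 33.53, 30.13 and 31.56 in PH. Other receptors of the list differed among themselves. *PGRP-LC* and *Dscam1* rose by 1.88 and 1.56, the latter not with a pseudocount of 5 RPKM. *eater*, a receptor for bacteria, had 147.1, 156.9 and 154.7 RPKM in AD and 249.7, 285.1 and 354 in PH, a log2 fold change of -0.94 that missed the fold threshold but passed it without PH replicate 1, and *crq* and *Sr-CI* had log2 fold changes of 0.46 and 0.65. *Sr-CIV* fell by 1.12, and lost its call with a pseudocount of 5 RPKM and without PH replicate 3.

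The secreted relatives of these receptors rose nearly as a block. *NimB2*, *NimB3* and *NimB5* rose by 3.79, 3.79 and 3.50, and *NimB1* and *NimB4* by 1.38 and 1.09, of which *NimB4* lost its call without AD replicate 2 or PH replicate 1. *NimB5* had 135.1, 133 and 139.3 RPKM in AD and 8.457, 11.72 and 13.59 in PH. *He* overlaps *NimB5* by 78 bp on the other strand and had 8.857, 5.406 and 8.083 RPKM in AD and 103.5, 135.5 and 176.8 in PH. The overlapping pair gave opposite directions. Among the thioester proteins, which coat microbes, *Tep1* fell by 1.57 and *Tep4* had a log2 fold change of -0.58.

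The basement membrane genes were split. Of 13 tested genes 5 were higher and 3 lower, against 23.0% and 13.9% of all tested genes, with a median of -0.12. *Ppn* (papilin, chromosome 3R from 28520665 to 28540324) had 1800, 2082 and 1716 RPKM in AD and 36.23, 49.93 and 98.98 in PH, a ratio of means of 30.2 (log2 fold change 5.02, SE 0.31, adjusted p = 3.4e-06, limma). *Mp*, a collagen of the XV/XVIII type, rose by 3.72 from very low levels in PH. The collagen IV genes *Col4a1* and *vkg* rose by 1.2 and 1.02, and *SPARC*, which binds collagen IV, rose by 1.91. The call of *vkg* was lost under 4 alternatives. Laminin genes did not share this. *LanA* had 190.5, 220.1 and 189.2 RPKM in AD and 202.4, 209.4 and 238.6 in PH with overlap, and *LanB1* and *LanB2* had log2 fold changes of -0.76 and -0.55. *Glt* (glutactin) and *Tig* (tiggrin), a ligand of integrins, fell by 1.87 and 2.52. *PH4alphaEFB*, which hydroxylates collagen, rose by 3.01.

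The cytoskeleton was where PH led. Of 31 tested genes of actin and cell migration 21 were lower and 3 higher in AD, with a median of -1.47, and their summed RPKM was 3100 to 3730 in AD and 18800 to 22700 in PH. *Act5C*, a cytoplasmic actin (chromosome X from 5900861 to 5905399), had 748.2, 773.1 and 976.5 RPKM in AD and 10480, 8697 and 8121 in PH. *Act42A*, the other cytoplasmic actin, had 446.6, 400.5 and 518.9 RPKM in AD and 4950, 4371 and 4854 in PH. These were among the most expressed genes of PH outside rRNA, and the ratios of the PH to the AD mean were 10.9 and 10.4. *sn*, fascin, which bundles actin filaments, had 2.077, 1.792 and 2.413 RPKM in AD and 371.6, 308.4 and 234.5 in PH, a ratio of means of 146.

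The proteins that turn actin over were lower too. *chic* (profilin) had 373.3, 376 and 426.3 RPKM in AD and 2186, 1966 and 1688 in PH, and *tsr* (cofilin) fell by 1.96. *alphaTub84B*, a tubulin, fell by 2.88 and was among the 10 most expressed genes of PH outside rRNA. The 3 genes that rose were *Fhos*, *spir* and *form3*, which encode proteins that nucleate or elongate filaments. *Fhos* had 40.64, 35.83 and 48.65 RPKM in AD and 0.7236, 0.9423 and 0.6101 in PH (log2 fold change 4.60), *spir* rose by 2.75, and the call of *form3* was lost under 6 alternatives. Adhesion genes were lower in 4 of 15 cases, against 13.9% of all tested genes. Among them were *Pax* (paxillin) at -2.49, *stck* at -1.62 and *ics* at -1.44, which belong to the complexes behind integrins.

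Of 15 tested heat shock and chaperone genes 6 fell in AD and none rose. Among the small heat shock proteins, chaperones induced by heat and, in late larvae, by ecdysone, *Hsp23*, *Hsp26* and *Hsp27* were much higher in PH, whereas *Hsp67Bc* fell by 1.43 with a call lost at a pseudocount of 5 RPKM and *l(2)efl* had a log2 fold change of 1.37 and was not called. *Hsp23* had 8.99, 8.231 and 32.48 RPKM in AD and 2358, 1631 and 1080 in PH. *Hsp27* had 46.46, 19.66 and 35.18 RPKM in AD and 2201, 1579 and 1336 in PH, and *Hsp26* fell by 3.26. The groups were far apart for these genes, although AD replicate 3 was well above the other AD samples for *Hsp23*. Outside the small heat shock proteins, *Hsp68* and *Hsp83* fell by 2.73 and 1.05, and the call of *Hsp83* was lost under 4 alternatives. The stress-inducible *Hsp70Aa* behaved otherwise, with 84.24, 38.05 and 25.12 RPKM in AD and 178.3, 3.432 and 75.68 in PH. It and the other 5 copies of *Hsp70*, which are nearly identical so that reads may be shared among them, were lowest among the PH samples in replicate 2 and overlapped between the groups. *Hsc70-4*, the constitutive chaperone, had 576.6 to 600.5 RPKM in AD and 728.4 to 772.2 in PH (log2 fold change -0.34).

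**Figure D4:**
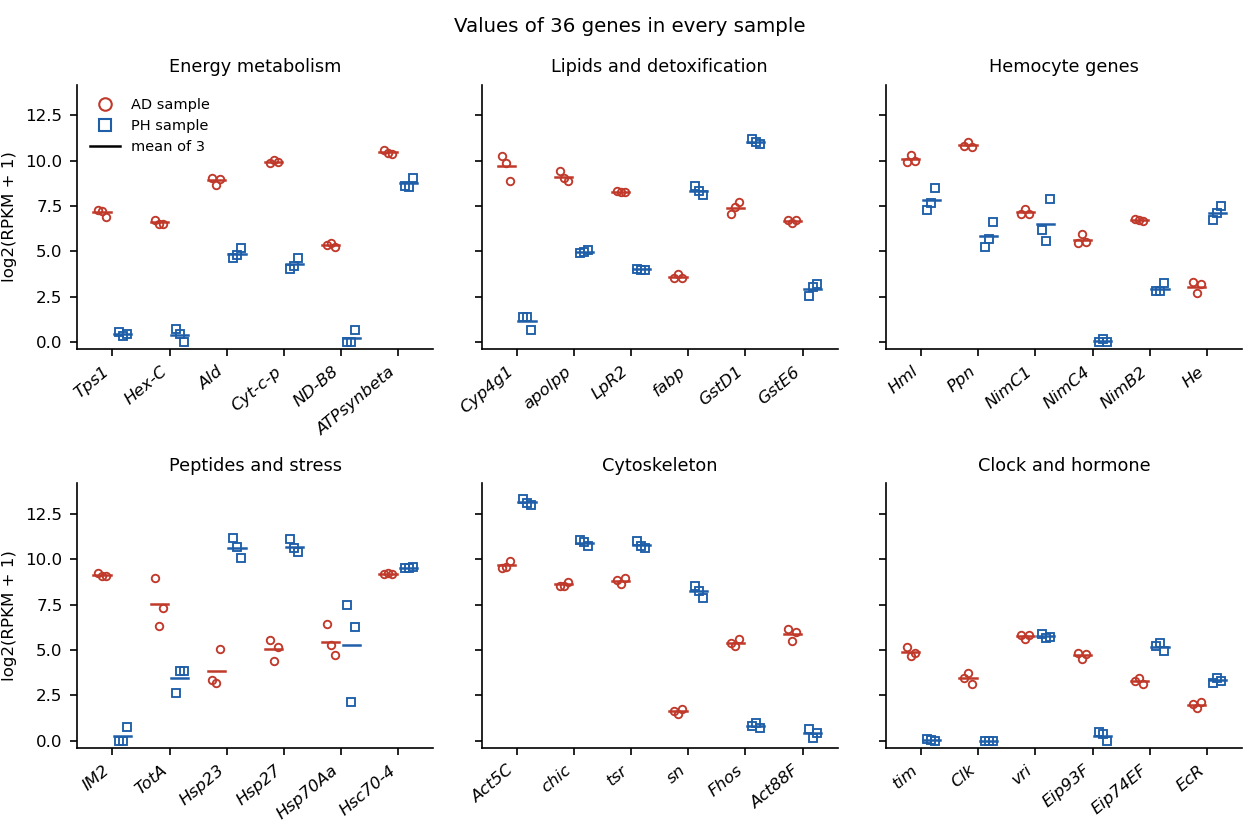
Values of 36 genes in every sample, as log2(RPKM + 1), with AD samples as red circles, PH samples as blue squares and the mean of 3 as a line. The groups are well separated for *Tps1*, *IM2*, *Act5C* and *sn*, whereas *NimC1*, *Hsp70Aa* and *vri* overlap, and *Hsp70Aa* is lowest in PH replicate 2 (3.432 RPKM).

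The proteasome, which degrades proteins, was lower in AD throughout. All 31 tested proteasome genes lay below PH without overlap, against 30.1% of all tested genes. Of them 23 were called, with a median of -1.15. *Rpn5* had 41.55, 42.02 and 43.97 RPKM in AD and 131, 120.8 and 135.1 in PH. The smaller changes, such as *Rpn6* at -0.64, passed the p threshold but not the fold threshold. In the endoplasmic reticulum 10 of 24 tested genes of folding and secretion fell, among them *Hsc70-3* (BiP, -1.66), *ERp60* (-1.76), *Calr* (-1.41) and *Sec61alpha* (-1.81), 13 were not called, and 1 rose (*PH4alphaEFB*, 3.01). *Hsc70-3* had 240.3, 290.7 and 279.2 RPKM in AD and 1029, 845.5 and 715 in PH.

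Ribosomal proteins showed a smaller shift. Of 83 tested cytosolic ribosomal protein genes 74 lay below PH without overlap, against 30.1% of all tested genes. Only 2 were called, *RpL41* and *RpL28*, and both calls were lost with quantile normalization. That of *RpL28* was also lost after scaling to the sum outside rRNA and without AD replicate 3. The median was -0.61 (-0.40 after quantile normalization, -0.49 after scaling to the sum outside rRNA). Their summed RPKM was 26400 to 31700 in AD and 41600 to 46500 in PH. Translation factors had a median of -0.38 with 3 of 19 higher, a share below the 23.0% of all tested genes. *Ef1alpha48D*, the main elongation factor, had 3544, 3835 and 3525 RPKM in AD and 4880, 4413 and 5302 in PH, whereas its paralog *Ef1alpha100E* had 30.67, 33.37 and 53.25 RPKM in AD and 1.007, 1.3 and 0.7824 in PH. *pAbp*, which binds the poly(A) tail, had 353.3 to 404.4 RPKM in AD and 68.21 to 151.6 in PH and rose by 1.86. The less expressed of the elongation factor genes rose while the main one did not pass the fold threshold.

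Many genes of mitosis were lower in AD. Of 30 tested mitotic genes 13 fell and 1 rose, with a median of -1.0. *Cdk1*, the kinase that starts mitosis, had 0, 3.363 and 0 RPKM in AD and 20.06, 23.84 and 37.21 in PH. *fzy* (Cdc20) had 0.3028 to 0.8285 RPKM in AD and 5.825 to 10.8 in PH. *stg* (Cdc25), which activates *Cdk1*, was the gene that rose, with 17.83, 17.06 and 15.49 RPKM in AD and 1.386, 2.431 and 0.5086 in PH. It stood opposite to the kinase it acts on. In DNA replication 5 of 31 tested genes fell, a share near the 13.9% of all tested genes, and 2 rose. *PCNA*, the sliding clamp, had 0.3095, 5.873 and 8.473 RPKM in AD and 19.99, 23.77 and 28.65 in PH, and *E2f1*, which activates S phase genes, had 32.49, 27.43 and 33.26 RPKM in AD and 10.02, 9.716 and 4.751 in PH (log2 fold change 1.86). The call of *PCNA* was lost under 7 alternatives.

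Histone genes of the replication type, which occur as near-identical copies in a cluster on 2L, were called lower in 102 of 108 cases with a median of -2.27. Their copies share reads, so these are not independent genes. On chromosome 2L 21.5% of the 1471 tested genes were lower with them and 15.7% of 1363 without them, against 10.9 to 13.3% on X, 2R, 3L and 3R. Nuclear transport genes fell in 8 of 17 cases. *Pen*, importin alpha 2, had 2.184, 3.594 and 10.55 RPKM in AD and 140, 146.3 and 155.8 in PH (log2 fold change -4.74), whereas the other importins *Kap-alpha1* and *Kap-alpha3* had log2 fold changes of 0.22 and -0.29 and were not called. *Ran*, the GTPase that drives transport, fell by 1.54.

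Genes of the circadian clock were higher in AD or not called. The clock is a loop in which *Clk* and *cyc* activate *per* and *tim*, whose products shut them off, and *vri* and *Pdp1* form a further loop. Of 11 tested genes 6 were higher and none lower. *tim* had 34.61, 24.29 and 28.11 RPKM in AD and 3 reads in all PH samples together. *Clk* had 9.972, 12.52 and 7.696 RPKM in AD and no PH read, which puts it at least 58.2-fold higher in AD. *Pdp1* had 18.47, 15.61 and 15.74 RPKM in AD and 0.1284 to 0.1646 in PH. Both loops were represented among the genes that rose, but *vri* had 48.58 to 55.93 RPKM in AD and 49.22 to 58.99 in PH and a log2 fold change of 0.00, and *cyc* had 0.39. *cry* and *per* were low in AD (2.442 to 3.028 and 1.097 to 1.402 RPKM) and their calls were lost with a pseudocount of 5 RPKM, that of *per* also after quantile normalization and without any of the PH samples. The time of day of collection is not given in the sources used here.

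Hormone response genes were divided, with 5 of 14 tested higher and 4 lower, against 23.0% and 13.9% of all tested genes. Their median of -0.01 changed sign with the scaling. *EcR*, the ecdysone receptor, had 3, 2.497 and 3.346 RPKM in AD and 8.187, 10.15 and 8.89 in PH. Its early targets *Eip74EF* and *Eip78C* fell by 1.89 and 2.95, and *Hr4*, a nuclear receptor, by 2.38. In contrast *Eip93F*, a target that acts in the pupa and adult, had 27.69, 21.3 and 26.9 RPKM in AD and 0.372, 0.3151 and 0 in PH, a log2 fold change of 4.42, and *ftz-f1* rose by 2.80. These 2 early targets and these late ones moved in opposite directions. *Eip75B* and *Hr39* had log2 fold changes of -0.87 and -0.11 and were not called, although *Eip75B* was called lower without PH replicate 3. *gce*, a receptor of juvenile hormone, had 17.64 to 22.26 RPKM in AD and 1.386 to 2.252 in PH, and its partner *Met* rose by 1.08 with a call lost under 8 alternatives. The call of *EcR* was lost with a pseudocount of 5 RPKM.

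Of 13 tested transcription factors of the hemocyte lineages and their Notch inputs, 9 were higher and none lower, with a median of 1.54. *N*, the Notch receptor, had 29.46, 34.22 and 22.18 RPKM in AD and 8.632, 9.451 and 6.986 in PH, and its ligand *Ser* had 5.332 to 6.479 and 0.06231 to 0.2673. *pnt*, an ETS factor, rose by 1.70. *kn* (Collier) and *Antp*, which mark the niche of the larval lymph gland, were near the detection threshold, with 1.652 to 2.938 and 1.366 to 1.764 RPKM in AD and 0.05915 to 0.2482 and 0.0419 to 0.2904 in PH. They were called, but not with a pseudocount of 5 RPKM or after quantile normalization, and *Antp* not without PH replicate 1 or 3. *ush* and *zfh1* had log2 fold changes of -0.23 and 0.39. *gcm* and *gcm2*, which start embryonic hemocyte fate, had 1 read and 0 reads in the 6 samples.

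In insulin signaling 4 of 16 tested genes were higher, again near the 23.0% of all tested genes, and 1 was lower. *Thor* (4E-BP), which holds back translation, had 339, 332.1 and 261.8 RPKM in AD and 18.75, 18.77 and 16.51 in PH, a ratio of means of 17.3. *ImpL2*, a secreted protein that binds insulin-like peptides, had 31.04, 26.91 and 32.29 RPKM in AD and 3.244, 2.384 and 2.143 in PH, and *Ilp6*, such a peptide, had 12.63, 8.91 and 12.52 RPKM in AD and 94.72, 97.8 and 51.99 in PH. The peptide and its binder therefore moved in opposite directions. *chico*, the insulin receptor substrate, rose by 1.6, and *Tor* had a log2 fold change of -0.72.

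Iron genes went in different directions. The ferritin subunits *Fer1HCH* and *Fer2LCH*, which store iron and are neighbors with 118 bp of overlap, had 861.4, 1024 and 867.7 and 1738, 2101 and 1812 RPKM in AD. In PH they had 138.2, 131.2 and 120.1 and 276.4, 274.1 and 322.8 RPKM, and they rose by 2.81 and 2.69. *Tsf1*, the transferrin of the blood, rose by 3.50 and *Zip99C*, an iron transporter of the secretory pathway, by 2.65. *Irp-1A*, an iron regulatory protein of the cytosol, fell by 2.22 and *Mvl*, a metal transporter, by 1.44. The other transferrins did not follow *Tsf1*, since *Tsf2* fell by 1.09 with a call lost under 7 alternatives and *Tsf3* had a log2 fold change of -0.09. The median of the list, -0.09, changed sign with the scaling.

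Of 12 tested antioxidant genes 6 were higher and 2 lower, against 23.0% and 13.9% of all tested genes. *Jafrac1*, a peroxiredoxin, had 108.3, 125.8 and 136 RPKM in AD and 9.993, 12.16 and 8.516 in PH, whereas *Cat* (catalase) had 59.98, 53.27 and 50.19 RPKM in AD and 213.2, 175.7 and 171.6 in PH. Both enzymes remove hydrogen peroxide, and their orders were opposite. *Sod*, the superoxide dismutase of the cytosol, was not called (log2 fold change -0.26). Among autophagy genes 4 of 19 rose, close to the 23.0% of all tested genes, *Atg8a* (1.58), *Atg17* (1.76), *Atg1* (1.35) and the cargo receptor *ref(2)P* (1.94), and *Atg7* fell by 1.57. *Atg8a* had 202.2, 190.6 and 198.3 RPKM in AD and 64.96, 75.03 and 56.85 in PH. The calls of *Atg1* and *Atg7* were lost with a pseudocount of 5 RPKM.

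Some of the largest falls lay outside the lists above. *Cpr49Ac*, a cuticle protein gene (chromosome 2R from 12386666 to 12390057), had 0.1564, 0.1562 and 0.571 RPKM in AD and 878.6, 679.7 and 571.6 in PH (log2 fold change -9.09, SE 0.20, adjusted p = 3.1e-08, limma). *Ama* (amalgam), a secreted adhesion protein, had 0.1702, 0.5099 and 0.4659 RPKM in AD and 497.2, 470.5 and 463.2 in PH. *Dtg*, a target of Dpp signaling, had 0.672 to 1.349 RPKM in AD and 223.7 to 465.5 in PH, and *CG43446* had 1 read in AD against 7503 in PH. All were abundant in PH and close to absent in AD. Of the 70 genes of the cuticle family 6 passed the filter, *Cpr49Ac* among them. *Cpr49Ab* and *Cpr49Ae*, neighbors of *Cpr49Ac* by name, had 7.094 to 12.05 and 2.513 to 10.7 RPKM in AD and 0 and 1 reads in PH.

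Among the largest rises beside the yolk protein genes, *CG6503* had 510.5, 577.2 and 401.5 RPKM in AD and a single read in PH, and *CG4461* had 222.3, 234.7 and 183.3 RPKM in AD without any PH read, a difference of at least 237-fold. *CG15293* had 139.2 to 206.6 RPKM in AD and 6 reads in PH. *CG6084* was among the 10 most expressed genes of AD outside rRNA and rose by 3.37. *regucalcin* was among the 10 most expressed in both groups, with 3960, 4949 and 3955 RPKM in AD and 4364, 4090 and 5045 in PH, and did not differ beyond the spread (adjusted p = 0.71).

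Genes annotated as ncRNA leaned to AD. Of 237 tested genes annotated as ncRNA 106 (44.7%) were higher and 11 (4.64%) lower, against 1616 and 1033 of the 7132 protein coding genes. *CR31781* had 203.5, 180 and 190 RPKM in AD and 0.1762, 0 and 0.2909 in PH, a log2 fold change of 7.38. *CR42862* had 501.8, 455.2 and 381.2 RPKM in AD and 54.46, 28.05 and 21.88 in PH. *CR43482* was the reverse, with 22.58, 13.16 and 6.868 RPKM in AD and 1174, 807.2 and 723.2 in PH. *roX1*, an RNA of male dosage compensation, had 7.449, 8.227 and 8.567 RPKM in AD and 2.301, 2.558 and 3.563 in PH, and *roX2* had 5 and 2 reads. Its rise was lost with a pseudocount of 5 RPKM. Of 139 tested snoRNAs, which guide rRNA modification, 17 were higher and 3 lower, several on a few reads. Both shares were below the 23.0% and 13.9% of all tested genes.

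The direction of change was related to the length of the gene's exons. Of the 325 tested genes with more than 8 kb of exon 52.6% were higher and 3.69% lower in AD, with a median of 1.06. The shares were 28.1% and 6.12% at 4 to 8 kb, and 18.2% and 17% at 1 to 2 kb. The pattern was seen among well expressed genes as well. With a mean above 10 RPKM, 56.8% of 125 genes longer than 8 kb were higher in AD against 23.7% of shorter genes. The groups also differed in depth and in rRNA share, as given above, and the part of these in the relation to length was not tested.

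**Figure D5:**
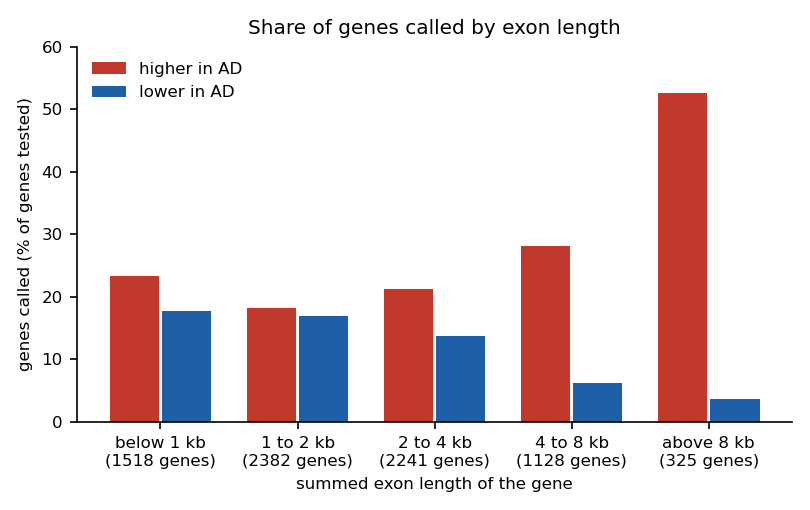
Percentage of tested genes called higher (red) and lower (blue) in AD by the summed exon length of the gene, with the number of genes in each class under the bars. The share higher in AD reaches 52.6% above 8 kb, where 3.69% are lower.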

How the data were processed

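Libraries came from adult (AD) and larval peripheral (PH) hemocytes, 3 biological replicates each. The authors trimmed reads with Trimmomatic 0.32, aligned them with HISAT2 2.1.0 to dm6 and counted them with HTSeq 0.5.4p5. The values deposited by the authors are RPKM (Cufflinks 2.2.1), not counts, with decimal commas. The labels and the paper name different RNA kits and sequencers. Columns of the lymph gland were not used.

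Genes exceeding an RPKM of 1 in 3 or more of 6 samples were tested with limma 3.58.1 (R 4.3.3) on log2(RPKM + 1), with an intensity trend, two-sided, Benjamini-Hochberg over 7692 genes, called at an adjusted p below 0.01 and a log2 fold change beyond 1. Fold changes of low genes are understated on this scale. A gene read in a single group passed the filter only through that group. Whole reads were recovered from the RPKM for 97.8 to 97.9% of values (within 0.02) and gave the depth and the limit of 3 reads per library for genes at 0. Identifiers of 17216 of the 17490 genes, and symbols of a further 85, were found in the BDGP6.54 annotation, whose coordinates are printed. Named genes were members of the lists, genes that the paper names as differing, the largest changes and the most expressed genes. Members and lists were chosen with earlier results of these data known. A planned promoter motif description was not run. The fit was checked on simulated data.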

Additional observations from a re-analysis of the deposited data

How the results depend on the processing

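With a pseudocount of 5 RPKM the calls were 1073 higher and 638 lower, the only setting that moved a count of calls by more than 1.5 times. Under the other settings 1309 to 1892 genes were higher and 899 to 1450 lower, and no call was reversed. Leaving out each sample in turn gave 1609 to 1643 higher and 922 to 1018 lower. With the replicate block 1763 were higher and 1070 lower, but same-numbered samples did not deviate together (r 0.036, -0.008 and 0.048), so the samples share only a number. Limma-voom on recovered reads gave 1885 and 1105 of 7594 genes. In every setting that tested them 1024 higher and 583 lower genes were called. Of 332 called named genes 259 kept their call throughout and 73 lost it in some setting. The median of 5 of 57 lists changed sign, namely lamellocyte markers, hormone and temporal factors, fatty acid oxidation, iron handling and cuticle proteins. Strand and collection time were not known, and p-values measure the spread between 3 pooled samples a group.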
